A study of Mus musculus with 10 samples.

Results

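The genes described here are 9 ligands of the CC and CXC chemokine families, namely Ccl2, Ccl3, Ccl4, Ccl5, Ccl6, Ccl9, Ccl17, Cxcl2 and Cxcl10, chosen by name from 20660 genes that the arrays name. Each of the 9 had 1 probe. They were measured on 10 Agilent 1-colour arrays. The cells were EML-C1, a line of mouse blood progenitors immortalised with a dominant-negative retinoic acid receptor, kept in medium conditioned by BHK/MKL cells. Untreated cells were taken at day 0. Treated cells received erythropoietin (EPO, 10 ng/ml), or IL-3 (10 ng/ml) with all-trans retinoic acid (ATRA, 10 µM), or all of these together, which is called the combined treatment. GM-CSF (10 ng/ml) was added to the cultures with IL-3 only after day 3, so the day 3 cells of the arm named IL-3/GM-CSF had not yet received it. From each treatment there were arrays of the Sca1-low and the Sca1-high cells of day 3, plus an array of day 6 cells whose Sca1 fraction is not named. Sca1 is a surface protein of blood progenitors. Each of the 10 conditions had 1 array, without replicates, and a second experiment that the series describes was not analysed here.

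Chemokines are small secreted proteins that direct the migration of blood cells through G protein-coupled receptors. CC ligands such as Ccl2, Ccl3 and Ccl5 draw monocytes, T cells and eosinophils, whereas Cxcl2 draws neutrophils and Cxcl10, an interferon-induced ligand, draws activated T cells. In blood-forming tissue many of them are made by maturing myeloid cells, and Ccl3 is also known as an inhibitor of stem and progenitor cell proliferation. Their genes lie in clusters. Ccl5, Ccl9, Ccl6, Ccl3 and Ccl4 follow one another without another protein-coding gene between them on mouse chromosome 11, and Ccl2 lies beside Ccl7 on the same chromosome. Ccl17 lies beside Cx3cl1 on chromosome 8, and Cxcl2 lies beside Cxcl1 on chromosome 5.

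Promoter windows were found for 6 of the 9 genes (RefSeq, GRCm38.p6), and 4 of them are shown because their genes carry the patterns described next. Ccl6 and Ccl9 are neighbours with the widest range of levels, and Cxcl2 was measured only in cells given IL-3. Ccl17 was the only tested ligand that lay higher in Sca1-low than in Sca1-high cells under each treatment, though this difference was not called. Each window holds the 250 bases before the gene's start, 5′ to 3′, and capitals mark matches to 6 motifs searched on both strands. The Ccl6 window is chr11:83593088-83593337 on the minus strand, Ccl9 is chr11:83578637-83578886 on the minus strand, Cxcl2 is chr5:90903649-90903898 on the plus strand and Ccl17 is chr8:94810203-94810452 on the plus strand.
Ccl6: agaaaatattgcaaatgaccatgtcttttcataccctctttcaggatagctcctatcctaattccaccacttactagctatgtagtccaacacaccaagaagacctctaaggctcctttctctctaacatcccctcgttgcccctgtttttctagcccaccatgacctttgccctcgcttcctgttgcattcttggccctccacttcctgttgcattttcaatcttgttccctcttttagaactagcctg
Ccl9: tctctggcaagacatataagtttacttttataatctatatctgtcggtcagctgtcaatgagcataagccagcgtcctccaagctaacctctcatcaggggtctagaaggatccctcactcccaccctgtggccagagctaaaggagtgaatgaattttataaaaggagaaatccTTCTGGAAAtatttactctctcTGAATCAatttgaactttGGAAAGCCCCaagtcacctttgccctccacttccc
Cxcl2: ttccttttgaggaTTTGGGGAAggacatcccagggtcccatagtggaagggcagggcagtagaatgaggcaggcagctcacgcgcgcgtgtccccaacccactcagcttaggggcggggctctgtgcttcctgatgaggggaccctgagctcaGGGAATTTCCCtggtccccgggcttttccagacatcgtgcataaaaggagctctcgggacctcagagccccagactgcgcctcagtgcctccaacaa
Ccl17: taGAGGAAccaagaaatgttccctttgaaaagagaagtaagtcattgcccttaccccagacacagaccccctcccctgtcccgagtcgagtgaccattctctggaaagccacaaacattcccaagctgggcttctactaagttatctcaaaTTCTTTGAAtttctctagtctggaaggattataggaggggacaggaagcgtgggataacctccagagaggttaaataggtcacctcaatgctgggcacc
The Ccl6 window held no match to any of the 6 motifs. The Ccl9 window held a match to the NF-kB consensus 35 to 26 bases before the start and a match to the AP-1 motif TGANTCA. It also held a match to TTNCNNNAA, a loose pattern searched here under the name C/EBP. None of these overlapped another. A match to that pattern does not show a C/EBP site, and its absence from the Ccl6 window does not exclude one. In the Cxcl2 window, 2 overlapping NF-kB matches lay between 97 and 87 bases before the start and a C/EBP match lay further upstream. The Ccl17 window held the STAT motif TTCNNNGAA 99 to 91 bases before the start and the PU.1 motif GAGGAA near its upstream end. Of the windows not shown, Ccl3 held a PU.1 match, and Cxcl10 held 3 NF-kB matches, of which 2 overlapped, with a match each to AP-1, C/EBP and the interferon-stimulated response element (ISRE). Among 32851 promoter windows of the same length, 7.25% held the NF-kB consensus, 6.75% AP-1, 7.02% STAT, 32.9% C/EBP, 23.3% PU.1 and 2.98% the ISRE. Between the Ccl6 and Ccl9 windows the longest identical run was 13 bases, gccctccacttcc, starting 55 bases before the start of Ccl6 and 14 bases before that of Ccl9. In the other 14 pairs of the 6 windows the longest run was 7 to 10 bases.

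Levels are log2 of the processed spot intensity relative to the 75th percentile of the same array, so that a level of 0 equals that percentile. The 75th percentile itself lay between 309 (EPO Sca1-low) and 736 (untreated) intensity units. A probe was well above background when the extraction software marked it so, and otherwise its level is only a bound. The arrays came on 3 slides. Untreated cells shared slide 1 with EPO and combined day 6, the EPO and IL-3/GM-CSF day 3 fractions shared slide 2, and the combined fractions shared slide 3 with IL-3/GM-CSF day 6. The number of arrays, 1 per condition, limits the precision of every value. For Ccl2, the only member spotted 10 times, the SD between spots was 0.064 to 0.26 log2 on the 6 arrays well above background. In bulk RNA of this kind, fewer cells of a type and less RNA per cell cannot be told apart.

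Ccl6 and Ccl9 are mouse myeloid chemokines that act through the receptor CCR1, and both spanned a wide range. Ccl6 stood at -2.55 in untreated cells. In EPO-treated cells it was not well above background in the Sca1-low fraction (-5.88) or at day 6 (-5.55), and it stood at -2.12 in the Sca1-high fraction. With IL-3/GM-CSF it stood at -0.20 in Sca1-low cells, 6.17 in Sca1-high cells and 8.08 at day 6. With the combined treatment it stood at -3.55, 4.49 and 7.08 in the same order. The 4 highest arrays were thus the Sca1-high and day 6 arrays of both treatments with IL-3, and the processed intensity went from 126 in untreated cells to 170741 at day 6 of IL-3/GM-CSF. That difference of 10.62 log2 was 1577-fold, and at day 6 of the combined treatment Ccl6 was 790-fold above untreated cells.

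Ccl9 was well above background on all 10 arrays. It stood at 3.44 in untreated cells, already high for its own range. After EPO it was at -3.32 in Sca1-low cells, 4.09 in Sca1-high cells and -2.93 at day 6. After IL-3/GM-CSF it was at 0.57, 7.36 and 6.71, and after the combined treatment at -0.42, 6.69 and 6.39, in the same order. Both fractions of a treatment therefore lay far apart for Ccl9 under each treatment, and of the 3 day 6 arrays only that of EPO lay below untreated cells, 83.0-fold lower. Relative to untreated cells, Ccl9 was 108-fold lower in EPO Sca1-low cells, 7.32-fold lower in IL-3/GM-CSF Sca1-low cells and 14.6-fold lower in combined Sca1-low cells.

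Ccl5 (RANTES), which attracts T cells, monocytes and eosinophils, was well above background on all 10 arrays. It stood at -3.16 in untreated cells, and at -2.62, -2.59 and -2.90 in EPO Sca1-low, Sca1-high and day 6 cells. With IL-3/GM-CSF it stood at -2.86 in Sca1-low cells, 3.58 in Sca1-high cells and 1.40 at day 6. With the combined treatment it stood at -1.99, 3.40 and 0.91. The same 4 arrays as for Ccl6 were the high ones, but here the Sca1-high arrays lay above the day 6 arrays. The fraction difference was 86.6-fold with IL-3/GM-CSF and 41.9-fold with the combined treatment, while with EPO both fractions lay within 0.03 log2 of each other.

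Ccl3 (MIP-1 alpha), a ligand of CCR1, was at -4.36 in untreated cells and was not well above background in any of the 3 Sca1-low arrays (-5.85, -6.03 and -5.58 for EPO, IL-3/GM-CSF and combined). The Sca1-high arrays stood at -3.46, -0.49 and -0.32 in that order. Day 6 stood at -0.56 for EPO, 0.43 for IL-3/GM-CSF and -2.57 for the combined treatment. Ccl3 was the only member more than 2-fold above untreated cells on the EPO day 6 array, at 13.9-fold. Its intensity there was 324, against 35.9 in untreated cells and 5.4 in EPO Sca1-low cells.

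Ccl4 (MIP-1 beta), an attractant of monocytes and T cells encoded next to Ccl3, varied less. It stood at -3.98 in untreated cells, was not well above background in the 3 Sca1-low arrays or at EPO day 6, and stood at -2.73, -4.07 and -4.08 in EPO, IL-3/GM-CSF and combined Sca1-high cells. At day 6 it stood at -3.39 with IL-3/GM-CSF and -4.32 with the combined treatment. Apart from EPO Sca1-high cells, which were 2.38-fold above untreated cells, no array well above background differed from the untreated one by 2-fold. Thus at EPO day 6 Ccl3 was well above background and Ccl4 was not.

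Cxcl2 (MIP-2), a neutrophil attractant that acts through CXCR2, was well above background on 4 arrays only. These were the Sca1-high (-2.64) and day 6 (-1.76) arrays of IL-3/GM-CSF and the Sca1-high (-2.41) and day 6 (-4.49) arrays of the combined treatment. On the other 6 arrays it lay between -6.91 and -5.28, without a measurable level. IL-3/GM-CSF day 6 cells were at least 11.3-fold above untreated cells, and combined Sca1-high cells at least 7.19-fold.

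Ccl2 (MCP-1), the ligand of CCR2 that recruits monocytes, had its highest level in untreated cells, -1.02. EPO Sca1-high cells followed at -1.61. IL-3/GM-CSF Sca1-high and day 6 cells stood at -3.15 and -3.84, and combined Sca1-high and day 6 cells at -3.15 and -3.73. The 3 Sca1-low arrays and EPO day 6 were not well above background (-5.82 to -5.55). Every treated array therefore lay below the untreated one, by 4.39-fold in both Sca1-high arrays given IL-3 and by at least 12.1-fold in EPO Sca1-low cells.

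Ccl17 (TARC), a ligand of CCR4 that attracts type 2 helper T cells, was well above background on all 10 arrays. Unlike the other tested ligands, it lay higher in Sca1-low than in Sca1-high cells under each treatment. Untreated cells stood at -1.16. The Sca1-low fractions of EPO, IL-3/GM-CSF and combined stood at -0.90, -0.93 and -1.09, and the Sca1-high fractions at -1.26, -2.47 and -2.23. Day 6 stood at -1.94, -3.08 and -2.11 in the same order. The 3 Sca1-low arrays were the highest of all 10, and the whole range was 2.18 log2. Cxcl10 was not well above background on any array, with values between -7.34 and -5.42, so it has no measured level and was not tested.

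**Figure D1:**
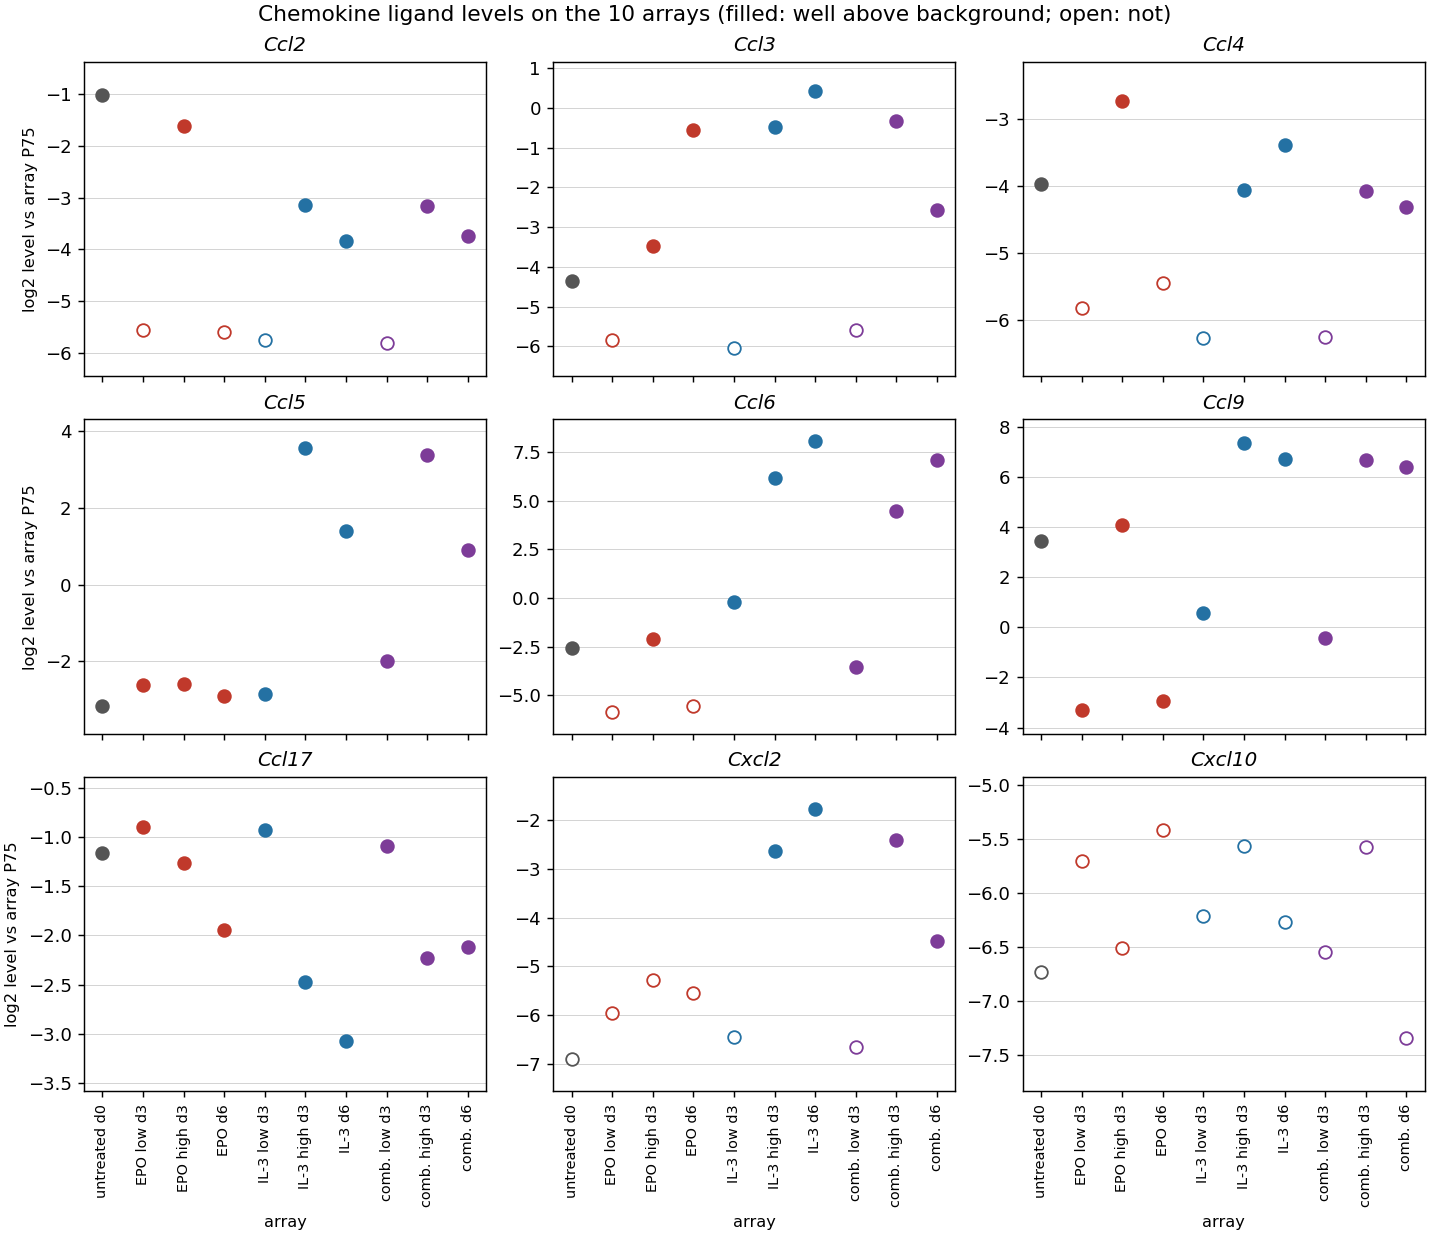
Log2 levels of the 9 ligands (vertical axis, relative to each array's 75th percentile) on the 10 arrays, 1 point per array, coloured by treatment and with its own vertical scale per gene. Filled points were well above background; Ccl6, Ccl5 and Cxcl2 are highest on Sca1-high and day 6 arrays of treatments with IL-3, Ccl2 is highest in untreated cells (-1.02), and Cxcl10 has open points only.

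The first comparison asked how Sca1-low and Sca1-high cells of the same culture differed at day 3. Ccl9, Ccl6, Ccl3, Ccl2 and Ccl4 were called lower in Sca1-low cells, 5 of the 8 ligands tested, while none was called higher. Among the 14204 genes tested, 6.98% were called lower and 4.09% higher in Sca1-low cells. The test was a limma fit of the 6 day 3 arrays with treatment as a term, so its error is the unevenness of the difference over the 3 treatments and not replicate error. A call is an adjusted p (Benjamini-Hochberg, over all genes tested) under 0.05. Measured levels entered the fit also where they were not well above background. With each dim level set to the limit of its array, an alternative chosen after seeing the data, 3 ligands were called lower (Ccl9, Ccl6 and Ccl3), against 7.15% of all genes tested, so the calls of Ccl2 (adjusted p = 0.056, limma) and Ccl4 (adjusted p = 0.21, limma) rest on dim values.

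Ccl9 fell by 7.10 log2 (SE 0.23, adjusted p = 0.0041, limma), with differences of -7.40 for EPO, -6.79 for IL-3/GM-CSF and -7.11 for both together. Ccl6 fell by 6.06 (SE 0.84, adjusted p = 0.019, limma), with the EPO Sca1-low array not well above background, and by 5.64 with that array at its limit (adjusted p = 0.030, limma). The other 3 called ligands were not well above background in any Sca1-low array, so their sizes are bounds. Ccl3 was at least 8.08-fold lower, Ccl2 at least 3.48-fold and Ccl4 at least 1.75-fold. Their adjusted p-values of 0.026, 0.012 and 0.012 (limma) belong to measured differences of -4.40, -3.07 and -2.49 that include the dim levels, not to these bounds, and at its bound Ccl3 had an adjusted p of 0.039 (limma). With normexp background correction, whose offset of 50 shrinks differences of dim spots, the differences were -2.03 for Ccl3, -1.08 for Ccl2, -0.81 for Ccl4, -4.90 for Ccl6 and -6.79 for Ccl9, and the same 5 were called. For Ccl2 and Ccl4 the bound was larger under EPO (3.00 and 1.88 log2) than under IL-3/GM-CSF (1.07 and 0.14 log2), whereas for Ccl3 it was smaller under EPO (1.15 against 3.73 log2). Pair by pair, 5 of the 8 tested ligands were at least 2-fold lower in Sca1-low cells under EPO and none higher, where 13.5% of the tested genes were lower and 12.3% higher. Under IL-3/GM-CSF 6 were lower and 1 higher (Ccl17), against 11.4% and 9.27%, and under the combined treatment likewise 6 and 1, against 10.6% and 11.4%. Whether these differences depend on the treatment was not tested, since there is 1 array per condition.

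Ccl5, Cxcl2 and Ccl17 did not pass. The Ccl5 difference was -3.95 (SE 1.31, adjusted p = 0.13, limma), made of -0.03 for EPO, -6.44 for IL-3/GM-CSF and -5.39 for both together. Cxcl2 had a measured difference of -2.92 (SE 0.76, adjusted p = 0.082, limma). Its Sca1-high cells were well above background only in the 2 treatments with IL-3, and no Sca1-low array was. With dim levels at their limit the difference was -1.06, which is not a bound, since neither EPO fraction measured Cxcl2 above background. Ccl17 was 1.02 higher in Sca1-low cells (SE 0.30, adjusted p = 0.10, limma), with 0.37, 1.55 and 1.14 in the 3 treatments. Without the EPO pair of arrays 8 of 8 tested members passed, Ccl17 as higher. In that setting 2305 genes passed in all, against 1573 in the fit of the 6 day 3 arrays. Without the IL-3/GM-CSF pair none of the members passed, nor did any other gene, with adjusted p = 0.055 (limma) for Ccl9. Without the combined pair 464 genes passed, and Ccl3 did not (adjusted p = 0.070, limma). In the fit of all 10 arrays none passed either, with an adjusted p of 0.11 for Ccl9.

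**Figure D2:**
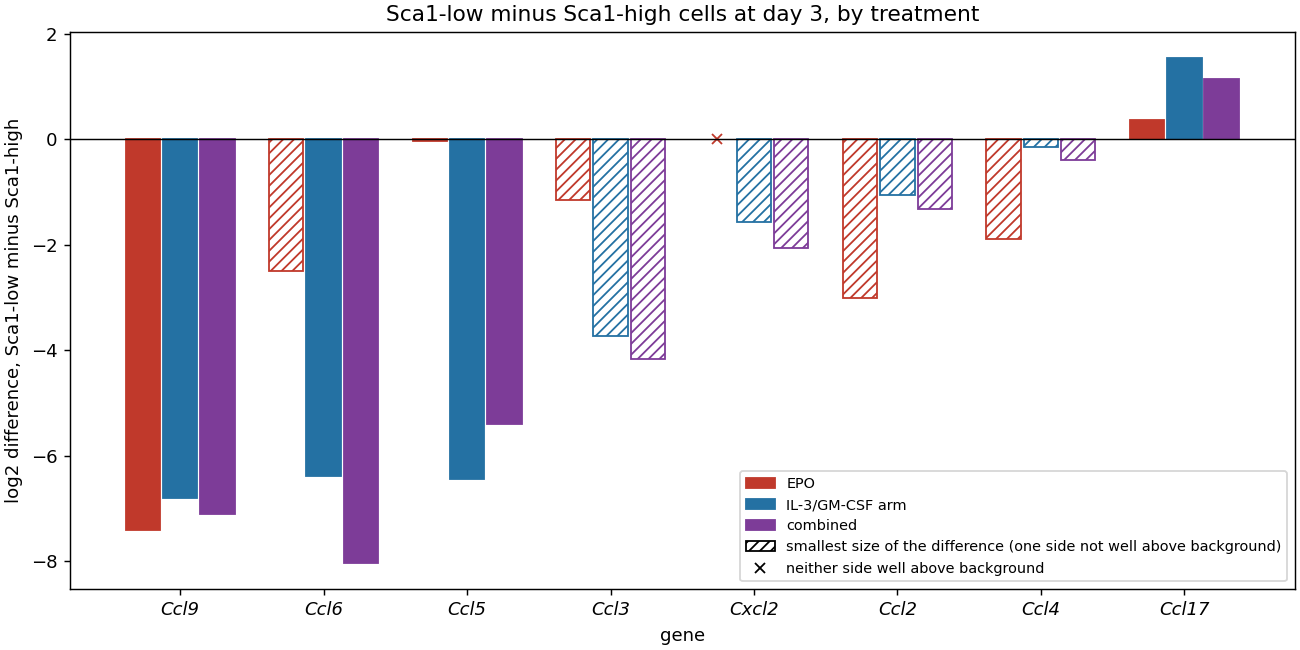
Log2 difference of Sca1-low minus Sca1-high cells (vertical axis) for 8 ligands under each treatment, 1 bar per pair of arrays, without error bars since there are no replicates. Hatched bars give the smallest size the difference can have, because the Sca1-low array was not well above background, and a cross marks a pair where neither array was. The 3 Ccl9 bars are alike (-7.40 to -6.79), Ccl5 has no visible EPO bar (-0.03), and Ccl17 points up under all 3 treatments.

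The second comparison set treatments against each other. In the fit of all 10 arrays, with treatment and population as terms, no ligand passed in any comparison of treatments. Few genes passed at all, since 1 of 14204 genes (0.00704%) was called for EPO against IL-3/GM-CSF and 1 for the combined treatment against EPO, Tbxas1 in both. For the combined treatment against IL-3/GM-CSF limma called 0 genes, with 261 at an unadjusted p under 0.05. The largest ligand difference between EPO and IL-3/GM-CSF was that of Ccl6, -9.20 (SE 1.79, adjusted p = 0.18, limma), in which 2 of the 3 EPO arrays were not well above background, and -8.37 with these at their limit. It was followed by Ccl9 at -5.60 (SE 1.39, adjusted p = 0.20, limma) and Ccl5 at -3.41 (SE 1.16, adjusted p = 0.23, limma). Ccl2 and Ccl4 differed by -0.01 and -0.09. Without the EPO Sca1-low array 131 genes passed, among them Ccl5 at -5.03 (adjusted p = 0.045, limma).

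Some of these differences could be read between arrays of the same slide. On slide 2, EPO Sca1-high cells were 314-fold below IL-3/GM-CSF Sca1-high cells for Ccl6, 71.8-fold for Ccl5, 9.68-fold for Ccl9 and 7.87-fold for Ccl3. In the same pair Ccl2 was 2.90-fold and Ccl4 2.53-fold higher with EPO, and Ccl17 was 2.32-fold higher. In the Sca1-low pair of that slide Ccl9 was 14.8-fold and Ccl6 at least 21.3-fold lower with EPO, Ccl5 was 0.24 log2 higher, and Ccl3 was not well above background on either array. On slide 1, combined day 6 cells were 639-fold above EPO day 6 cells for Ccl9, at least 2723-fold for Ccl6 and 14.0-fold for Ccl5, while Ccl3 was 4.03-fold lower. Over all tested genes, 5.91% were at least 2-fold higher and 6.75% lower in the Sca1-high pair, 9.2% and 10.3% in the Sca1-low pair, and 14.3% and 13.1% in the day 6 pair. With the slide as a block, 865 genes passed for the combined treatment against EPO, where 1 passed without it. Among them was Ccl9 at 9.32 (adjusted p = 0.0098, limma), where the fit without the block gave 4.94. Ccl6 passed too at 12.63 (adjusted p = 0.024, limma), but its EPO day 6 array was not well above background, and the bound for that pair was 11.41. That fit takes these values from the day 6 pair on slide 1 alone.

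At day 6 the combined treatment resembled IL-3/GM-CSF for some ligands and not for others. Combined day 6 cells were within 2-fold of IL-3/GM-CSF day 6 cells for Ccl2, Ccl4, Ccl5, Ccl9 and Ccl17, and Ccl6 was 1.00 log2 lower. Ccl3 was 7.98-fold and Cxcl2 6.61-fold lower, 2 of the 8 tested ligands, where 2.89% of the tested genes were at least 2-fold lower and 2.51% higher. These 2 arrays came from different slides, so slide and treatment cannot be told apart in that pair.

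Against untreated cells, a ligand counted as higher or lower where it differed by 2-fold or more and its brighter array was well above background. These counts share 1 control array and are not independent. EPO Sca1-high cells had 1 ligand higher (Ccl4) and none lower, against 3.51% and 1.56% of the tested genes. EPO Sca1-low cells had none higher and 3 lower (Ccl2, Ccl6 and Ccl9), against 18.5% and 16.3%. EPO day 6 cells had 1 higher (Ccl3) and the same 3 lower, against 11.6% and 12.6%. Cxcl2 and Cxcl10 were not well above background in EPO Sca1-high or in untreated cells, so they could not be compared. The other ligands of EPO Sca1-high cells lay within 2-fold of untreated cells apart from Ccl4. In EPO Sca1-low and day 6 cells Ccl2 and Ccl6 were not well above background and Ccl9 was far lower.

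IL-3/GM-CSF Sca1-high and day 6 cells each had 5 higher (Ccl3, Ccl5, Ccl6, Ccl9 and Cxcl2) and 2 lower (Ccl2 and Ccl17). Among the tested genes 8.66% were higher and 6.43% lower in the Sca1-high cells, and 9.91% and 7.73% at day 6. Combined Sca1-high cells had the same 5 higher and 2 lower, against 7.81% and 6.01%. Combined day 6 cells had 4 higher (Ccl3, Ccl5, Ccl6 and Ccl9) and 1 lower (Ccl2), against 7.59% and 6.1%, with Cxcl2 at least 1.71-fold higher and Ccl17 0.95 log2 lower. IL-3/GM-CSF Sca1-low cells had only Ccl6 higher, 5.08-fold, and Ccl2 and Ccl9 lower, against 7.9% and 9%. Combined Sca1-low cells had Ccl5 higher and Ccl2, Ccl6 and Ccl9 lower, against 9.95% and 10.7%. Ccl2 was lower than in untreated cells in 8 of 9 treated arrays by this measure, the exception being EPO Sca1-high.

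**Figure D3:**
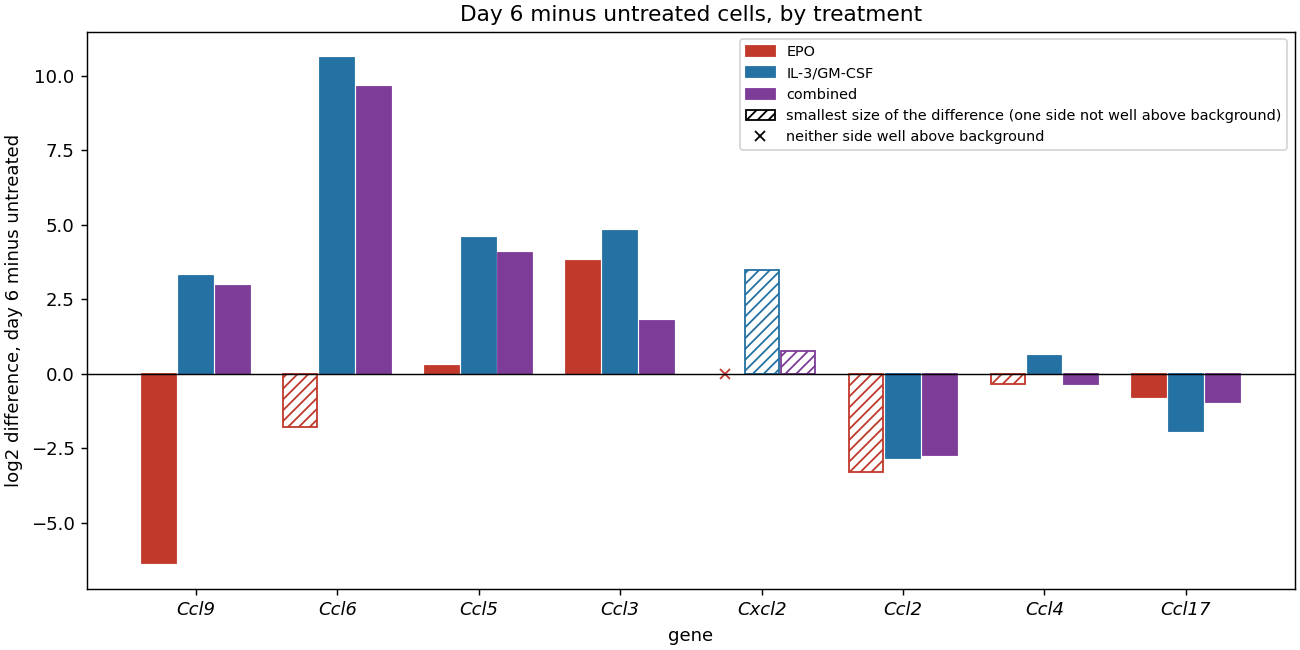
Log2 difference of day 6 minus untreated cells (vertical axis) for 8 ligands under each treatment, 1 bar per pair of arrays. Hatched bars give the smallest size of a difference with 1 side not well above background, and a cross marks a pair where neither array was. Ccl9 and Ccl6 point down with EPO and up with both other treatments (10.62 for Ccl6 with IL-3/GM-CSF), Ccl3 points up with all 3, and Ccl2 points down with all 3.

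The third comparison set day 6 against the mean of both day 3 fractions over treatments. limma called 0 genes, with 1368 at an unadjusted p under 0.05, so the background was 0% and no ligand passed. Among the ligand differences were 3.38 for Ccl6 (adjusted p = 0.54, limma), 2.72 for Ccl3 (SE 0.84, adjusted p = 0.43, limma), 0.97 for Cxcl2 (adjusted p = 0.71, limma) and -0.90 for Ccl17 (SE 0.27, adjusted p = 0.42, limma). Without the EPO day 6 array 789 genes passed, among them Ccl9 at 3.00 (adjusted p = 0.0062, limma) and Ccl6 at 5.85 (adjusted p = 0.028, limma). With the slide as a block 655 genes passed, again with Ccl9 and Ccl6. At day 6 of IL-3/GM-CSF, Ccl6 was 3.74-fold higher and Ccl5 4.52-fold lower than in its Sca1-high cells, 1 ligand each way, where 5.72% of the tested genes were higher and 5.14% lower. At day 6 of the combined treatment, Ccl6 was 6.03-fold higher than in Sca1-high cells, while Ccl5 was 5.62-fold, Ccl3 4.75-fold and Cxcl2 4.21-fold lower, against 5.33% and 5.59%. At day 6 of EPO, Ccl3 was 7.48-fold above Sca1-high cells and at least 16.6-fold above Sca1-low cells. Against Sca1-high cells Ccl2, Ccl4, Ccl6 and Ccl9 were lower there, with 11.5% of the tested genes higher and 13.2% lower. Against Sca1-low cells only Ccl17 was lower, by 2.07-fold, with 5.27% and 7.64%. Ccl6 thus kept its highest values for day 6 and Ccl5 for the Sca1-high cells of day 3 in both arms with IL-3.

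Over the 10 arrays the ligands fell into sets that varied together, which is a description, since the arrays share treatments and slides and dim values are included. Ccl6 and Ccl9 had a Pearson r of 0.90, Ccl5 and Cxcl2 0.90, Ccl3 and Cxcl2 0.85, and Ccl2 and Ccl4 0.86. Ccl17 ran against Ccl3 (r = -0.93) and Cxcl2 (r = -0.91). The neighbours Ccl3 and Ccl4 had an r of 0.57, lower than that of Ccl4 with Ccl2, which lies elsewhere on the chromosome.

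Among the other tested genes, those with the pattern most like each ligand were named by their r over the 10 arrays. Symbols of clone type (Rik, Gm with a number, and LOC) were left out of this search. For Ccl9 they were Sh2d5 (0.995), Dhrs3 (0.993) and Hsd17b12 (0.993). For Ccl6 they were Pram1 (0.991), Ncf4 (0.984), a subunit of the phagocyte NADPH oxidase, and Mgst2 (0.982). For Ccl2 they were Otulinl (0.995), Camk2a (0.985) and the kinase gene Tec (0.984). Ccl4 was most like Cdc42 (0.967), Efhd2 (0.964) and Dok3 (0.961), and Ccl5 most like Gimap6 (0.975), Rnf183 (0.971) and Myl10 (0.969), which were well above background on 4, 4 and 5 arrays. Ccl17 was most like Aqp11 (0.956), Mmp14 (0.953) and Gnl1 (0.942). Ccl3 had the least close partners, Tmem140 (0.898), Osgin1 (0.897) and Sertad2 (0.879).

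Receptors for these ligands were measured on the same arrays. Of 24 chemokine receptor genes, 19 were tested, and 6 were called lower in Sca1-low than in Sca1-high cells at day 3 while none was called higher, against 6.98% of all genes tested called lower. The list's median difference was -0.33, against 0.17 over all genes tested, and -0.07 against 0.21 with dim levels at their limit. Ccr2, the receptor for Ccl2, fell by 5.39 (SE 0.24, adjusted p = 0.0041, limma), although only 1 of the 3 Sca1-low arrays measured it above background. Ccr1, which binds Ccl3, Ccl5, Ccl6 and Ccl9, was at least 4.83-fold lower (adjusted p = 0.011, limma). Its relative Ccr1l1 and Cxcr3, the receptor for Cxcl10, were also called, at -2.58 and -2.49, each well above background on 2 of the 3 Sca1-low arrays. The atypical receptor gene Ackr3 was called as well, with no Sca1-low array well above background, and was at least 2.41-fold lower.

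Levels of the receptors did not all follow their ligands over the treatments. Ccr2 stood at -0.53 in untreated cells and at -0.95 and 0.76 at day 6 of IL-3/GM-CSF and combined, where Ccl2 was 7.05-fold and 6.57-fold below untreated cells. Ccr1 stood at -3.80 in untreated cells and at -1.13 and -1.22 at day 6 of the same treatments, on arrays where Ccl6 and Ccl9 were high. Cxcr2, the receptor for Cxcl2, did not pass for the fractions (adjusted p = 0.079, limma). No Sca1-low array measured it above background, nor did the EPO Sca1-high array. With dim levels at their limit its difference was -2.19, which is therefore not a bound. Cxcr2 was well above background on the same 4 arrays as Cxcl2. There it stood at -0.12 and 1.83 for IL-3/GM-CSF and at -1.89 and 0.90 for combined, Sca1-high and day 6. At day 6 Cxcr2 was at least 136-fold above untreated cells with IL-3/GM-CSF. Ccr4, the receptor for Ccl17, was well above background on 4 arrays, between -4.78 and -3.15. Cxcr2 and Ccr4 were named after their values were seen, as receptors of a member.

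**Figure D4:**
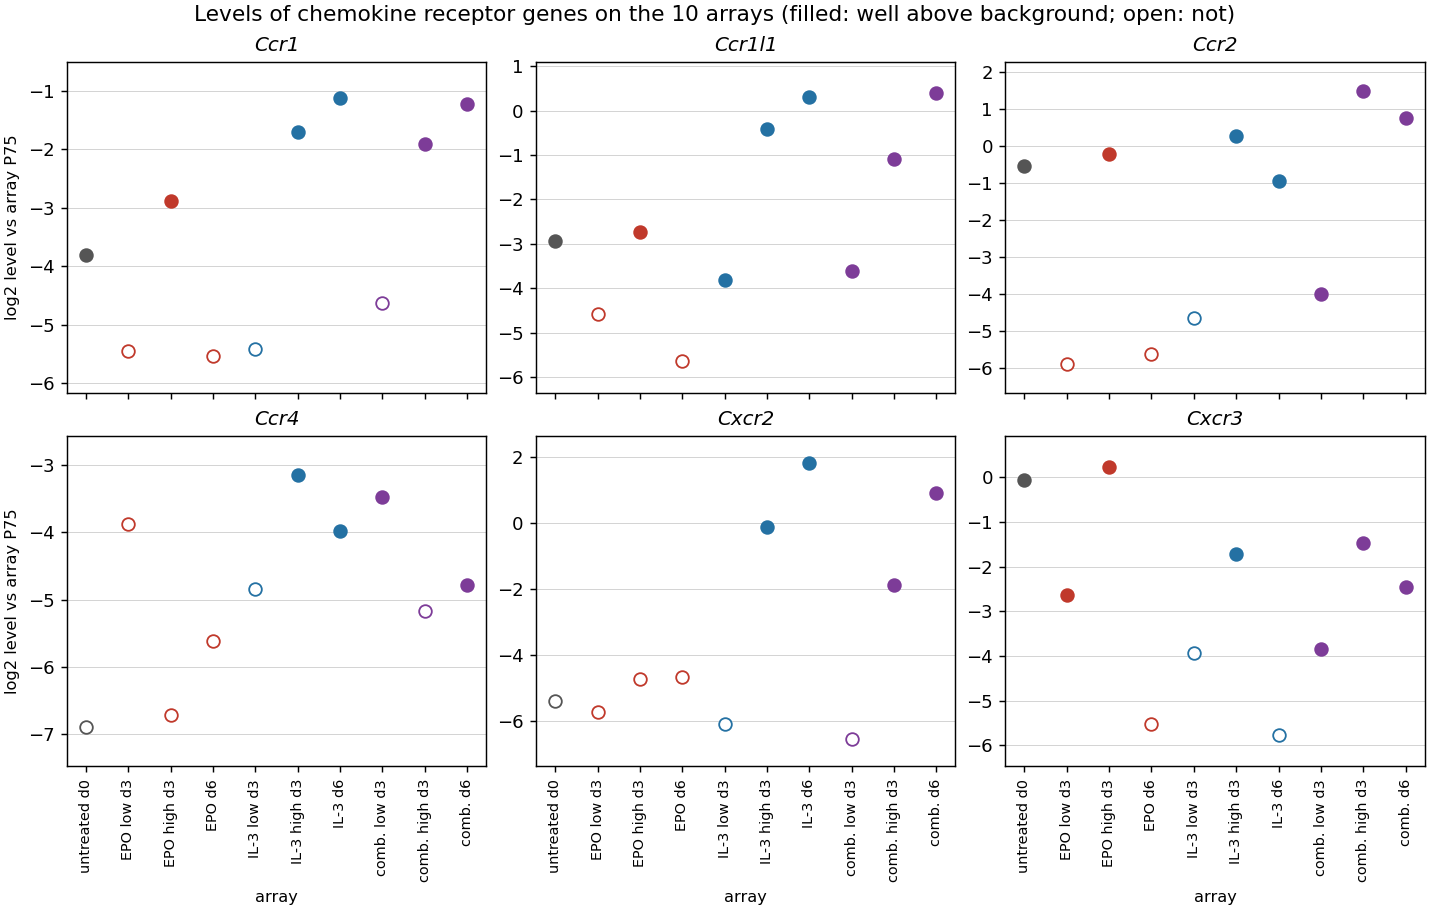
Log2 levels of 6 receptor genes (vertical axis, relative to each array's 75th percentile) on the 10 arrays, coloured by treatment, filled where well above background. Ccr1 and Cxcr2 are highest at day 6 of IL-3/GM-CSF (-1.13 and 1.83), Ccr2 is highest in combined Sca1-high cells (1.51), and EPO day 6 has open points only.

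Other genes of the pathway were followed in 4 further lists, and none of the 4 held a gene called higher in Sca1-low cells, where 6.98% of all genes tested were called lower and 4.09% higher. Sizes and medians here are of measured levels, and a gene with dim Sca1-low arrays is named as such. Of 29 other chemokine ligands, 11 were tested and 2 were lower, Ppbp (platelet basic protein), at least 88.5-fold, and Cx3cl1 (fractalkine), by 3.37 log2 and well above background on 2 of the 3 Sca1-low arrays, and the list median was -0.66, or 0.02 with dim levels at their limit. Of 19 genes for NF-kB subunits, inhibitors and targets, 5 were lower, namely Tnf (-3.14), Traf1 (-2.41), Icam1 (-1.71), Nfkbiz (-1.49, 1 of 3 Sca1-low arrays well above background) and Rel, which no Sca1-low array measured above background and which was at least 2.19-fold lower, with a list median of -0.22. With dim levels at their limit 7 were called lower, Bcl3 (-3.91) and Nfkbie (-1.20) being added, against 7.15% of all genes tested. Rel encodes an NF-kB subunit, and Tnf a cytokine that induces several of these ligands. Of 16 tested interferon pathway genes, 4 were lower, namely the transcription factor genes Irf8 (-3.87), Irf1 (-2.66) and Irf7 (-1.60) and Usp18 (-3.13), with a list median of -0.96, or -0.54 with dim levels at their limit. Irf8 was well above background on 1 and Irf7 on 2 of the 3 Sca1-low arrays. Of 12 tested genes of the IL-4 and GM-CSF receptor pathway, 4 were lower, all receptor chains, namely Il4ra (-2.43), Csf2rb2 (-2.04), Il2rg (-1.81) and Csf2rb (-1.55), with a list median of -0.26. Over the 8 tested ligands described here the median was -3.51 with dim levels as measured and -2.41 with dim levels at their limit.

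**Figure D5:**
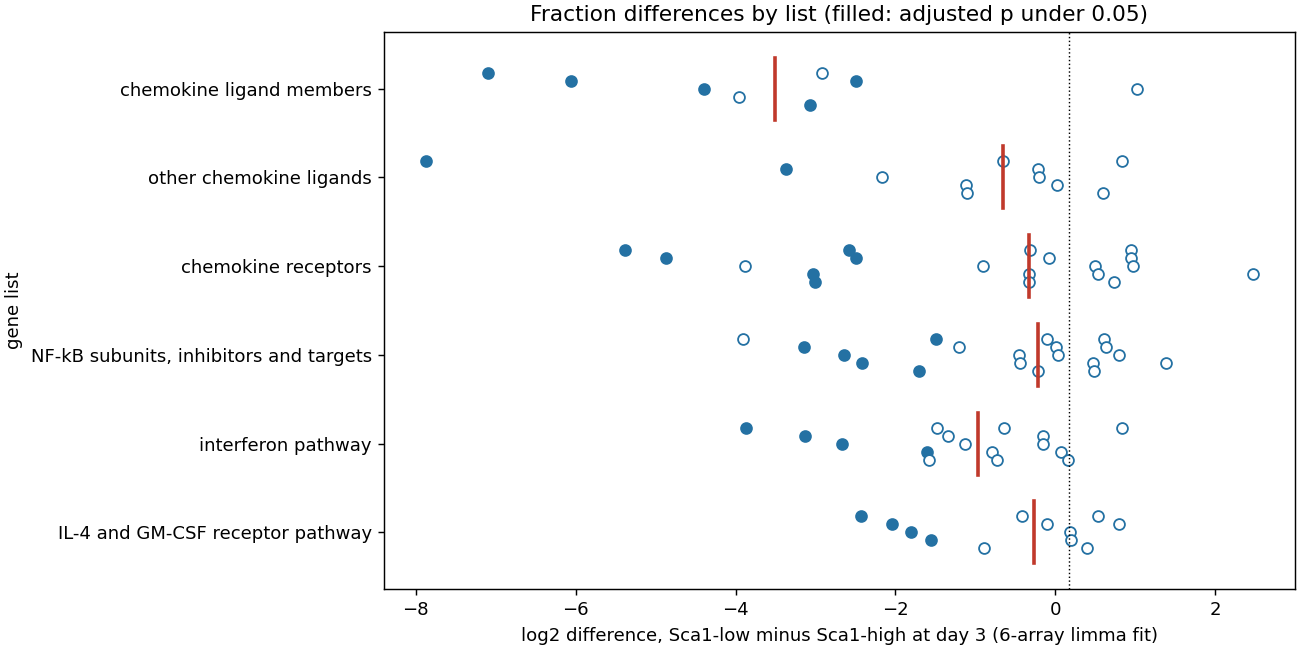
Log2 difference of Sca1-low minus Sca1-high cells at day 3 (horizontal axis, limma fit of 6 arrays, dim levels as measured) for every tested gene of 6 lists, 1 point per gene. Filled points have an adjusted p under 0.05, the red bar is the list median and the dotted line the median of all genes tested (0.17). All filled points of the 6 lists lie left of 0.

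Markers of blood cell types also differed between the fractions, but only in the erythroid list were all tested genes called. Over all genes tested, 6.98% were called lower and 4.09% higher in Sca1-low cells. The signal summed over 11 neutrophil genes, in units of the array's 75th percentile, was 9.99 to 16.2 in Sca1-low and 190 to 396 in Sca1-high cells, and at day 6 it ranged from 13.0 (EPO) to 2245 (IL-3/GM-CSF). Mpo alone made up 53.2% to 96.6% of the Sca1-high sums. Of the 11 genes 2 were called lower in Sca1-low cells, Mpo and Cebpe, and 3 of 11 lay lower there in the EPO pair, 10 in the IL-3/GM-CSF pair and 9 in the combined pair. Mast cell and basophil genes (10 on the array) summed to 34.5 to 40.8 in Sca1-low and 175 to 565 in Sca1-high cells, with 519 in untreated cells, and 3 of 10 were called lower, while 9, 7 and 9 of 10 lay lower in the EPO, IL-3/GM-CSF and combined pairs. Monocyte and macrophage genes (9 on the array) summed to 3.59 to 10.7 and 7.90 to 36.5, so the sums of the fractions overlapped. Of 6 tested monocyte genes 2 were called lower, Lyz2 (-5.12) and Fcgr1 (-2.62), with a list median of -2.94, and 4, 6 and 6 of 6 lay lower in the 3 pairs in that order. Lyz2 was not well above background in EPO and combined Sca1-low cells, nor was Fcgr1 in EPO Sca1-low cells. With dim levels at their limit the differences were -4.51 for Lyz2 and -2.50 for Fcgr1. Ms4a7 and C1qa were among the genes not well above background on any array. Of 9 tested erythroid genes all 9 were higher in Sca1-low cells, with sums of 433 to 917 against 40.2 to 80.4. Of 6 tested genes of T and NK cells 2 were called lower, Gzmb and Nkg7, and 3, 4 and 5 lay lower in the 3 pairs, with sums of 23.7 to 39.1 against 278 to 306. With dim levels at their limit these 6 genes ran from -5.24 for Gzmb to 0.84 for Cd3g. Of 5 tested dendritic cell genes 2 were called lower, Itgax and Cd74, and 3, 4 and 2 lay lower, with sums of 0.916 to 1.05 against 2.25 to 25.0. With dim levels at their limit these 5 genes ran from -6.35 for Itgax to 0.75 for Zbtb46. The part of cell type composition in the ligand differences was not tested.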

How the data were processed

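Per the labels' protocols, total RNA was Cy3-labelled and hybridised to 1-colour Agilent arrays. The authors deposited each array's processed spot intensity as Agilent Feature Extraction 11.0.1.1 output, per the submitters' processing notes. The deposited value table held the same intensities, on a linear scale and not centred, with column medians of 17.0 to 36.9, and served as an alternative. Flagged spots were set to missing, log2 intensity was taken relative to the array's 75th percentile, repeat spots were averaged, probes were named through a RefSeq table (98.1% of NM or NR accessions matched), and the brightest probe stood for a gene. Testing covered 14204 genes that 2 or more arrays measured well above background and used limma 3.58.1 in R 4.3.3, which was checked on simulated data with 200 changed genes. A bound sets a dim level to the lowest signal well above background on its array, where that is higher.

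The members and lists were chosen with earlier results of these data known. Named were all members, up to 6 called genes of a pathway list, and marker genes. Also named were the 3 genes, clone-type symbols left out, most correlated with a member well above background on at least 5 arrays. The normexp alternative (offset 50) used median spot signals, as mean signals were not used here. With 3 treatments as the only repeats, p-values measure unevenness and not replicate error. Promoters of Ccl2, Ccl4 and Ccl5, protein sequences and probe sequences were not used here.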

Additional observations from a re-analysis of the deposited data

Results flagged for a closer look

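For 2 ligands the difference from untreated cells went opposite ways with EPO and with IL-3/GM-CSF, each value being a single array against the same untreated array, and the difference between the treatments was not tested. Ccl6 in Sca1-low cells was at least 2.07 log2 lower with EPO and 2.34 higher with IL-3/GM-CSF, at least 4.42 apart. At day 6 Ccl6 was at least 1.79 lower with EPO and 10.62 higher with IL-3/GM-CSF, at least 12.41 apart. Ccl9 at day 6 was 6.37 lower with EPO and 3.27 higher with IL-3/GM-CSF, 9.64 apart.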

How the results depend on the processing

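Pairing by replicate number was not possible, because every group holds 1 array and all arrays carry the same replicate number. Treatment, not replicate number, paired the fractions in the fit. Some alternatives changed how many genes and ligands passed, and some differences smaller than 2-fold changed sign. For Ccl5, combined minus IL-3/GM-CSF Sca1-high cells gave -0.18, but 0.05 with normexp and 0.06 with quantile normalization. None of 116 ligand differences of at least 2-fold changed sign with the scaling. These were chosen for their size, so a change of sign was unlikely beforehand and its absence says little. Other scalings moved the median of all genes by over 0.1 log2 in 15 of 27 pairs of arrays, most for EPO Sca1-low minus untreated (0.18 to -0.03). For Sca1-low against Sca1-high cells, 1573 genes and 5 ligands became 1034 genes without a filter, 2425 genes and 3 ligands (Ccl5, Ccl9 and Ccl17, the only members left to test) with a filter on all 10 arrays, and 0 genes and 0 ligands in the fit of all 10 arrays. With dim levels at their limit, an alternative chosen after seeing the data, 1692 genes and 3 ligands passed, without Ccl2 and Ccl4. Normexp kept the 5 ligands but gave smaller sizes (Ccl2 -1.08, Ccl3 -2.03, Ccl4 -0.81, Ccl6 -4.90). Leaving out a pair of arrays gave 0 to 2305 genes (0 without IL-3/GM-CSF, 464 without the combined pair) and 0 to 8 ligands. For EPO against IL-3/GM-CSF, 1 gene became 2 with normexp, 0 with the slide as a block and 0 to 131 with an array left out (131 without EPO Sca1-low). For the combined treatment against EPO, 1 gene became 3 with normexp, 0 without a filter, 18 with the filter on all 10 arrays, 865 with the slide as a block and 0 to 101 with an array left out (101 without EPO Sca1-low). For day 6 against day 3, 0 genes became 655 with the slide as a block and 0 to 789 with an array left out (789 without EPO day 6). The 23 higher and 18 lower ligand differences from untreated cells became 9 and 7 with the filter on all 10 arrays, which leaves 3 of the 9 ligands. The cause of the other changes was not tested. Dim signal limits Ccl2, Ccl3, Ccl4 and Cxcl2 in Sca1-low cells and Ccl6 in EPO Sca1-low and day 6 cells to bounds, and Cxcl10 throughout.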

Other observations

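Some ligands outside the 9 stood apart on single arrays, and these are values chosen after they were seen. Ccl7, the neighbour of Ccl2 and like it an attractant of monocytes, was well above background only in untreated cells (-2.77) and EPO Sca1-high cells (-3.67), the same 2 arrays on which Ccl2 was highest. Ccl24 (eotaxin-2), which attracts eosinophils, was well above background only on the Sca1-high and day 6 arrays of IL-3/GM-CSF (-2.94 and -2.39) and of the combined treatment (-3.55 and -2.50), the same 4 arrays as Cxcl2. Cx3cl1, the neighbour of Ccl17, stood at -2.72 in untreated cells and at 0.52 in IL-3/GM-CSF Sca1-high cells, where Ccl17 was lower than in untreated cells. Pf4, a platelet chemokine gene, was well above background on all 10 arrays, from 3.31 in IL-3/GM-CSF Sca1-high cells to 6.42 in EPO Sca1-low cells.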
